A study of Mus musculus with 20 samples.

Results

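Metallothioneins and the zinc response are described here through 4 genes, the metallothioneins Mt1 and Mt2, the zinc exporter Slc30a1 and the zinc-sensing transcription factor Mtf1. They were chosen by name. Every probe set whose single gene symbol in the platform annotation was one of these names was taken, which gave 6 of the 22626 probe sets that are not Affymetrix controls, and 4 of 12393 named genes. Mt1 and Mtf1 had 2 probe sets each, and Mt2 and Slc30a1 had 1 each. All RNA came from C2C12 myotubes, the multinucleated cells that this established mouse muscle line forms in culture, so each group is a single clonal line and no animal. Myoblasts were differentiated for 96 h in medium with 2% horse serum and then kept for 2 h in medium with 0.5% horse serum, untreated or with H2O2 at 1, 10, 100 or 1000 µM. Each of the 5 groups had 4 Affymetrix Mouse Genome 430A arrays. The design text calls the 4 replicates independent without saying whether they were separate cultures, so the p-values below speak only of the scatter among these arrays, part of which may be technical. In such bulk RNA, fewer cells with a transcript and less of it per cell cannot be told apart.

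Metallothioneins are small, cysteine-rich proteins of the cytosol and nucleus that hold zinc and copper and bind cadmium. Their thiols react with oxidants, and oxidation lets go of the bound zinc. Free zinc is sensed by the zinc-finger factor MTF1, which binds short metal response elements in promoters and activates the metallothionein genes and Slc30a1, whose product carries zinc out of the cell. In skeletal muscle, metallothionein mRNA is also known to rise in wasting and with glucocorticoids.

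The arrays fell into 2 sets that dose did not define. The arrays numbered 1 in their titles, and the unnumbered 10 µM array, whose values lay with theirs, stood apart from the other 15 on the first principal component (27.62 to 42.47 against -16.08 to -6.225; 28.17% of the variance). These 5 arrays, 1 per dose, are called the replicate 1 arrays here, and the unnumbered array 10 µM replicate 1. They are treated as a batch of unknown origin. Each dose holds 1 of them. At 1000 µM the median log2 signal of all probe sets lay below the untreated one by -0.2028. All 12 myotube markers examined, among them Myog, Ckm and Acta1, exceeded each array's 40th percentile of signal on all 20 arrays. That was so of 5 of 5 cycling-cell markers, 3 of 4 reserve-cell markers (not Pax7), 2 of 5 fibroblast markers (not Lum or Thy1, which never did), 0 of 3 adipocyte markers and 0 of 4 leukocyte markers (Ptprc, Cd68 and Itgam never did).

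Mt1 and Mt2 mRNA gave strong signals in myotubes at every dose and differed little between doses. In the limma fit with dose alone, 0 of the 6 member probe sets passed the test against untreated myotubes at any dose (adjusted p under 0.05, Benjamini-Hochberg over all tested probe sets). Over all 14379 tested probe sets the share called was 0% at 1 µM, 0.00695% at 10 µM, 1.22% at 100 µM and 10.9% at 1000 µM. At an unadjusted p under 0.05 there were 960, 717, 1604 and 3761. With a term for the replicate 1 arrays, Mt1 was higher by a fold of 1.23 at 100 µM and 1.19 at 1000 µM, and Mt2 by a fold of 1.3 at 1000 µM, in a fit that called 3.96% of all probe sets at 100 µM and 22.8% at 1000 µM. Mt2 did not pass within replicates 2 to 4. Slc30a1 and both Mtf1 probe sets passed at no dose in either fit. The summed signal of the 12 myotube markers also lay higher at 1000 µM (97220 to 102900) than untreated (76720 to 92580), with 86460 to 103200 at 100 µM, and 1 of the 12 was called at 1000 µM and 0 at 100 µM. The part of myotube content in the metallothionein values was not tested.

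The brighter Mt1 probe set, 1422557_s_at, represents Mt1 here. Its deposited signals, on the linear scale of Microarray Suite 5.0, were 2048.4, 2815.2, 3020.6 and 2886.6 in untreated myotubes, in the order of replicates 1 to 4. At 1 µM they were 2172.4, 3568.1, 3039.3 and 3028.5. At 10 µM they were 2002.1, 2932.6, 3326.1 and 3310.3. In each group the replicate 1 array was the lowest by far, and the other 3 lay close together. At 100 µM the signals were 2569.7, 3476.5, 3649.6 and 3513.9. At 1000 µM they were 2583.4, 3413.2, 3429.3 and 3323.2. Every array at 100 and 1000 µM exceeded all untreated arrays of its own set, as 18% and 34.7% of tested probe sets did in either direction, but the groups of 4 overlapped with the untreated ones.

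Ordered by mean signal (± SD, n = 4), Mt1 ran from untreated (2693 ± 437.9) through 10 µM (2893 ± 621), 1 µM (2952 ± 577.6) and 1000 µM (3187 ± 405.3) to 100 µM (3302 ± 494.1). No neighbours in this order differed by more than their SD. The log2 difference from untreated was 0.30 ± 0.17 at 100 µM (SE, adjusted p = 0.575) and 0.25 ± 0.17 at 1000 µM (adjusted p = 0.387), with the difference itself between -0.062 and 0.656 and between -0.109 and 0.609 (95% interval). Neither passed. With the batch term the same differences had an SE of 0.065 and passed, at an adjusted p of 0.0107 and 0.00957, beside a share of 3.96% and 22.8% of all tested probe sets in that fit. Within replicates 2 to 4 alone they were 0.29 (adjusted p = 0.0334) and 0.22 (adjusted p = 0.0352), beside 2.57% and 18% of probe sets that passed in that fit. There the 3 treated arrays at each of these doses lay above the 3 untreated ones, and 25.2% and 43.4% of tested probe sets were likewise apart in either direction. On the replicate 1 arrays alone, 1 against 1, they were 0.33 and 0.34.

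Below 100 µM, Mt1 differed from untreated by 0.13 ± 0.17 at 1 µM (adjusted p = 0.956) and 0.09 ± 0.17 at 10 µM (adjusted p = 0.997). Neither passed with the batch term (0.425 and 0.639, beside 0.111% and 0.0139% of all probe sets). The top doses differed from each other by -0.05 ± 0.17 (adjusted p = 0.929, and 0.694 with the batch term), where 4.35% of all probe sets passed, and 11.5% with the term. The step from 10 to 100 µM, 0.21 ± 0.17, did not pass in the dose fit (0.956) or with the batch term (0.113, beside 2.45%).

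**Figure D1:**
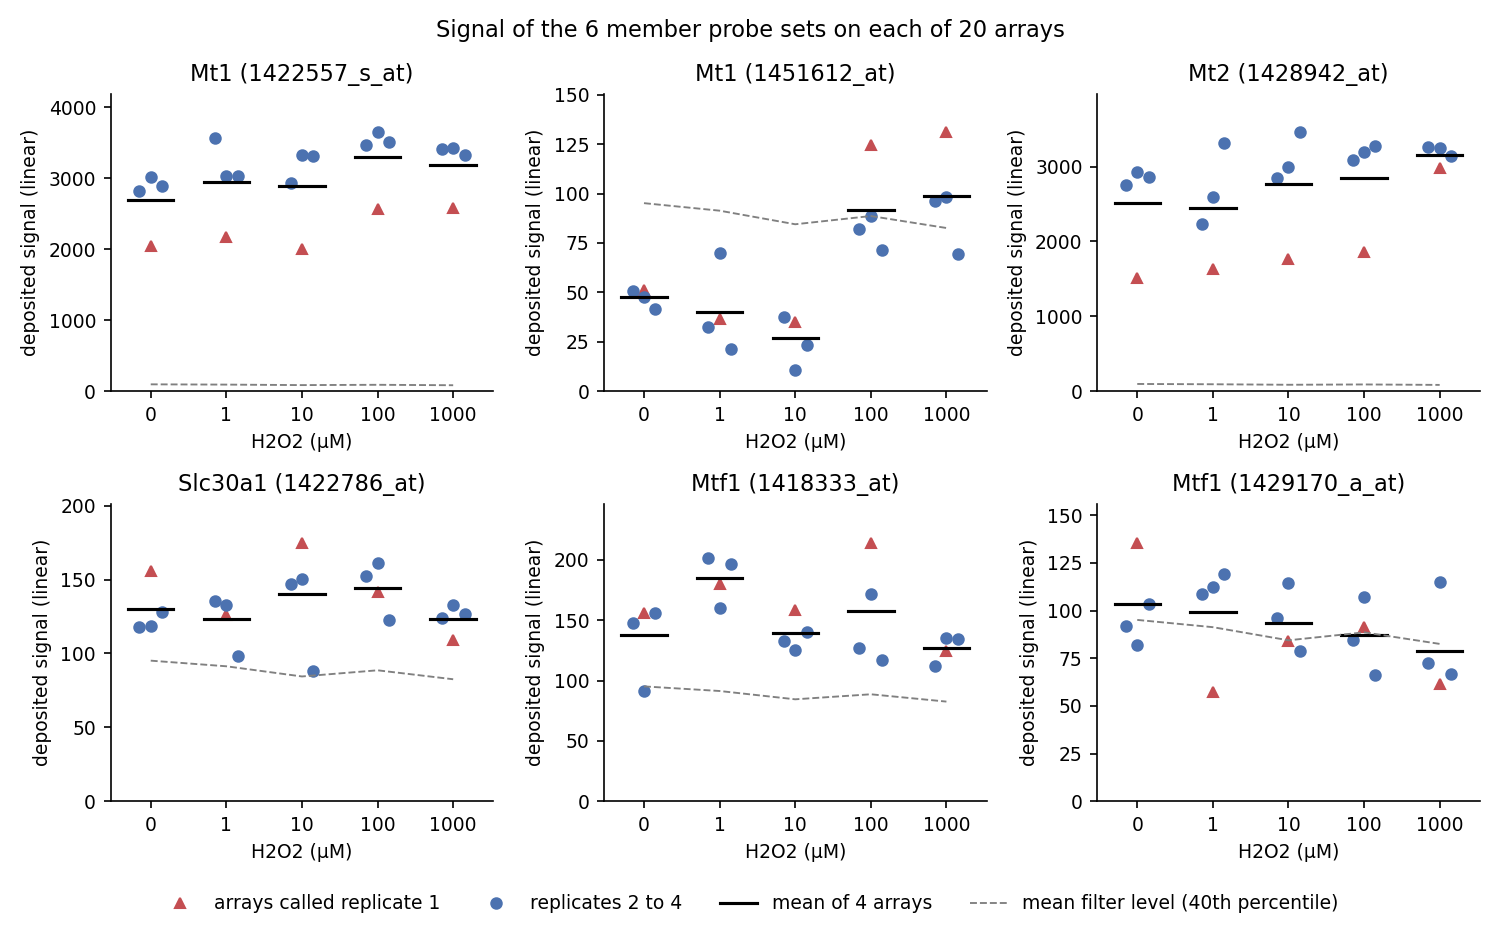
Deposited signal (linear, own axis per panel from 0) of the 6 member probe sets against H2O2 dose, 1 point per array, with triangles for the replicate 1 arrays, circles for replicates 2 to 4, bars for the mean of 4 arrays and a dashed line for the mean filter level. The triangles lie lowest at every dose for Mt1 (1422557_s_at) and Mt2, and the dim Mt1 probe set (1451612_at) lies between 69.6 and 131 at 100 and 1000 µM and between 10.5 and 70 at the lower doses.

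Mt2 encodes the other broadly expressed metallothionein of the mouse and is read by 1428942_at. Its untreated signals were 1511, 2759.2, 2924.8 and 2864.8. They were 1630.7, 2240.2, 2596.4 and 3314.7 at 1 µM and 1765.6, 2845.9, 2992.4 and 3459.4 at 10 µM. As for Mt1, the replicate 1 array was the lowest of each group. At 100 µM the signals were 1853.7, 3086, 3189.6 and 3271.2, and at 1000 µM 2979.2, 3260.7, 3246.2 and 3137.3. At 1000 µM the 4 arrays were close together and all above the 4 untreated ones, as was so, in either direction, for 20.5% of all tested probe sets. At both top doses every Mt2 array exceeded all untreated arrays of its own set, as for Mt1. That held in either direction for 18% (100 µM) and 34.7% (1000 µM) of tested probe sets.

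By mean signal (± SD, n = 4) Mt2 was ordered 1 µM (2446 ± 703.4), untreated (2515 ± 672.8), 10 µM (2766 ± 716.3), 100 µM (2850 ± 668.6) and 1000 µM (3156 ± 130). No neighbours differed by more than the larger of their SDs. At 1000 µM the log2 difference from untreated was 0.38 ± 0.24 (adjusted p = 0.339). It passed with the batch term (SE 0.119, adjusted p = 0.0265, beside 22.8% of all probe sets) but not within replicates 2 to 4, where it was 0.17 (adjusted p = 0.258). The replicate 1 pair alone differed by 0.98, a fold of 1.97 read from 1 array each. At 100 µM the difference was 0.19 ± 0.24 (adjusted p = 0.832, and 0.409 with the batch term). At 1 and 10 µM it was -0.04 ± 0.24 (0.993) and 0.14 ± 0.24 (0.99).

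Mt1 and Mt2 were set against each other through the log2 difference between their probe sets on each array. That difference changed from untreated by 0.16 at 1 µM, -0.05 at 10 µM, 0.10 at 100 µM and -0.13 at 1000 µM. Exact two-sided permutation tests over 70 assignments gave p = 0.4, 0.8, 0.457 and 0.571 for the 4 doses (n = 4; adjusted p = 0.762, 0.8, 0.762 and 0.762; smallest possible p 0.0286). These assignments exchange arrays across the sets, which differ in this measure (0.439 on untreated replicate 1 and 0.011 to 0.046 on untreated replicates 2 to 4). Permuting within the sets, which leaves 40 assignments and a smallest p of 0.05, gave p = 0.45, 0.65, 0.05 and 1 (exact permutation test; adjusted p = 0.867, 0.867, 0.2 and 1). This design could not fall below 0.05. At 100 µM all arrays exceeded the untreated ones of their set. Replicate 1 stood at 0.471 against 0.439, 1 array each, and the others at 0.103 to 0.194. How often other pairs of probe sets were apart in this way was not examined. At 1000 µM the sets went opposite ways, with 0.066 to 0.083 on replicates 2 to 4, above their untreated arrays, and -0.206 on replicate 1, below its own. The mRNAs are alike in sequence, and cross-hybridisation between them was not examined.

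The difference between the array sets was larger than any dose effect on the bright metallothionein probe sets. In the fit with dose and batch, the replicate 1 arrays lay below the others by -0.52 ± 0.05 on the log2 scale for Mt1 (adjusted p = 3.14e-08) and by -0.67 ± 0.09 for Mt2 (adjusted p = 2.93e-06). These are folds of 0.698 and 0.63. Of all tested probe sets 46% passed in this comparison, so such a difference was common. Slc30a1 (0.13 ± 0.13, adjusted p = 0.444) and Mtf1 (0.22 ± 0.13, 0.166, and -0.18 ± 0.18, 0.427) did not pass. Over the 20 arrays the correlation of Mt1 with Mt2 was 0.826, and it was 0.451 once each batch's mean was taken off. The arrays share their scaling, and the higher value spans the 2 batches.

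**Figure D2:**
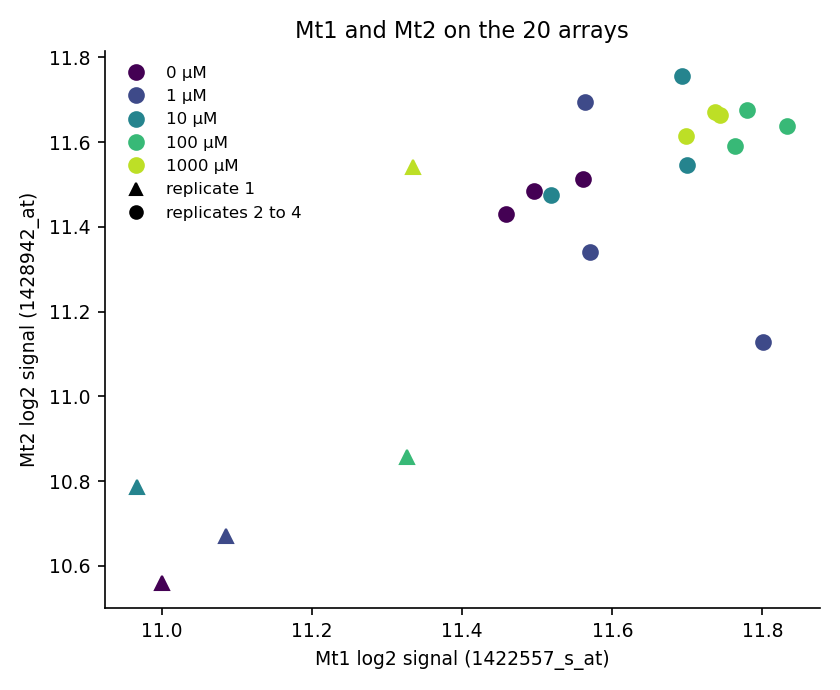
Log2 signal of Mt2 (1428942_at, vertical) against Mt1 (1422557_s_at, horizontal) on the 20 arrays, coloured by dose, with triangles for the replicate 1 arrays and circles for the other 15. The triangles at 0, 1, 10 and 100 µM form the low group, and the triangle at 1000 µM lies at the level of the circles for Mt2 only.

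Promoter sequence is shown for the members whose known control is through the metal response element, to let the element be seen beside the values above. Mt2 and Mt1 are neighbours on mouse chromosome 8, with 5315 bases between their RefSeq gene records (94172618 to 94173567 and 94178883 to 94180327, assembly GRCm38.p6). Slc30a1 lies on chromosome 1 (191906697 to 191913248) and Mtf1 on chromosome 4 (124802549 to 124849800). The windows below, from RefSeq with build GRCm38.p6, run from 250 bases before to 50 after 1 RefSeq transcription start of each gene, plus strand, 5' to 3'. That start is the first base of the gene record for Mt2 and Mtf1 but lies 206 bases inside it for Mt1 and 84 inside it for Slc30a1, and positions are counted from it. They are chr8:94178839-94179138 for Mt1, chr8:94172368-94172667 for Mt2 and chr1:191906531-191906830 for Slc30a1. Capitals mark matches to the core of the metal response element, TGCACNC or TGCGCNC, on either strand.
Mt1: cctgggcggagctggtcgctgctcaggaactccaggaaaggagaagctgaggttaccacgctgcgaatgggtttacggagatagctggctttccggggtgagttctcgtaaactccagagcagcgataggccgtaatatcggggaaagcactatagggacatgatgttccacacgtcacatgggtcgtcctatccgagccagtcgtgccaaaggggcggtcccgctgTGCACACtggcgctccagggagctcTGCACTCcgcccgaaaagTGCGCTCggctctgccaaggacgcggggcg
Mt2: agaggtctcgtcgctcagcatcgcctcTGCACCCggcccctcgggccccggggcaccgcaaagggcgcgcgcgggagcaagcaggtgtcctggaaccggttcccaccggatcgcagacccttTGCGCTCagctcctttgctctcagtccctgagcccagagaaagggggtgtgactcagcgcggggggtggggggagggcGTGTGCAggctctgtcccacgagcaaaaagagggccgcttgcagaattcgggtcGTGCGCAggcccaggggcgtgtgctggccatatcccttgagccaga
Slc30a1: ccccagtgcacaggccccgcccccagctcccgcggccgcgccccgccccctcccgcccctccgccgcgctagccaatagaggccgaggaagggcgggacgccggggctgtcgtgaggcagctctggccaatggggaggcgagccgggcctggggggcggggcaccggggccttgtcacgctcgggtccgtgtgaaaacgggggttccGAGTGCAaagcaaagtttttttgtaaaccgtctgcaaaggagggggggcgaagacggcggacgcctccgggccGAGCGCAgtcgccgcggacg

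The Mt1 window held 3 matches, at -23 to -17, 3 to 9 and 21 to 27 from the start used, all as printed. The Mt2 window held 4, of which those at -223 to -217 and -128 to -122 are as printed and those at -50 to -44 and 5 to 11 are on the other strand. The Slc30a1 window held 2, at -43 to -37 and 31 to 37, both on the other strand. The Mtf1 window (chr4:124802299-124802598) held 0. Of 32851 windows of the same length, 25.7% held at least 1 match, 7.11% at least 2, 1.97% at least 3 and 0.517% at least 4. A core of the antioxidant response element, TGACNNNGC, which no metal match overlapped, stood once each in the Mt2 window (-79 to -71) and in the Slc30a1 window (-82 to -74, other strand), and in 12.4% of all windows at least once. These are matches of letters in 1 window per gene, and other starts of these genes were not searched. Which start is active in myotubes was not tested, so a position before or after the start used may differ for another start. Sequence past the end of each window was not searched. A window without a match therefore does not show that the promoter lacks the element.

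**Figure D3:**
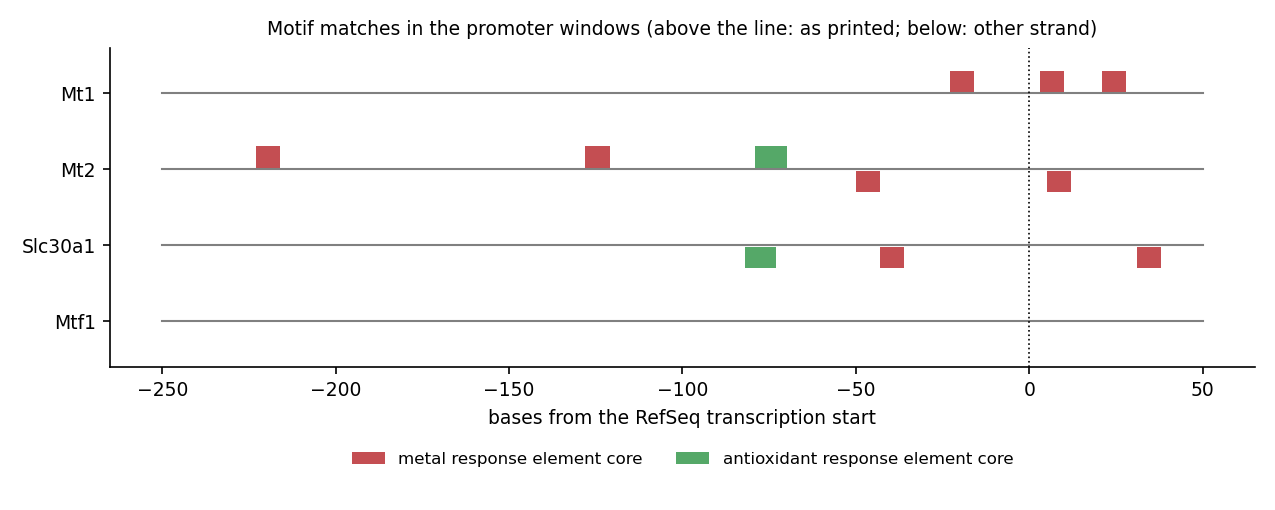
Positions of motif matches in the promoter windows of the 4 genes, from 250 bases before to 50 after the 1 RefSeq transcription start used for each gene (dotted line), with red boxes for the metal response element core and green boxes for the antioxidant response element core, drawn above the line where they match as printed and below it on the other strand. Mt1 has 3 red boxes, Mt2 4, Slc30a1 2 and Mtf1 0.

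The second Mt1 probe set, 1451612_at, was dim. Its signals were 51, 50.7, 47.4 and 41.5 untreated, 36.5, 32.3, 70 and 21.5 at 1 µM, and 35.1, 37.7, 10.5 and 23.2 at 10 µM. They were 124.7, 82.3, 88.6 and 71.5 at 100 µM and 131, 96.4, 98.1 and 69.6 at 1000 µM. All arrays at the top doses lay above all untreated arrays, which held for 8.98% (100 µM) and 20.5% (1000 µM) of tested probe sets in either direction. All 10 µM arrays lay below all untreated and all 100 µM arrays, which held for 4.07% and 6.77%. It was under the filter level, the array's 40th percentile of signal, on all 12 arrays at 0, 1 and 10 µM. It reached that level on 2 arrays at 100 µM and 3 at 1000 µM, and so it was tested only through the doses where it was high. Its size of change is therefore inexact, and the separation of its arrays by dose is no support for a change. By mean signal (± SD, n = 4) the order was 10 µM (26.62 ± 12.47), 1 µM (40.08 ± 20.93), untreated (47.65 ± 4.412), 100 µM (91.78 ± 23.06) and 1000 µM (98.78 ± 25.14), and the step from untreated to 100 µM alone exceeded both SDs of its neighbours.

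Without the filter, so that entry into the test did not depend on the top doses, the fitted log2 difference between 100 and 10 µM was 1.91 ± 0.39 (adjusted p = 0.0178). With the filter its adjusted p was 0.0146, in a comparison that called 0.932% of tested probe sets, 0.772% upward. As the 10 µM signals all lay under the filter level, the fitted value is no measured size. The filtered call ended without 10 µM replicate 3 (1.52, adjusted p = 0.0563) or 100 µM replicate 1 (1.76, adjusted p = 0.0714). Against untreated myotubes the difference was 0.92 ± 0.39 at 100 µM (adjusted p = 0.363) and 1.02 ± 0.39 at 1000 µM (adjusted p = 0.101). Without the filter these had adjusted p = 0.496 and 0.139 in the dose fit. With the batch term, fitted with the filter only, adjusted p was 0.0475 at 1000 µM and 0.174 at 100 µM. As the filter was met only through the top doses, the pass at 1000 µM is no support for a change. Within replicates 2 to 4 the probe set fell under the filter. Between 10 µM and untreated, all levels were under the filter and no size is given. In the trend over dose rank its adjusted p was 0.0235 without the filter and 0.0178 with it (11.2% of all passed with it, 2.82% upward). In the F-test of any change over the 5 doses it was 0.00709 without and 0.0057 with it (8.01% of all, and 20.9% with the batch term). The other 5 member probe sets passed neither in the dose fit. With the batch term the trend also passed for Mt1 1422557_s_at (0.00252) and Mt2 (0.0111), beside 23.1% of all, and for the former within replicates 2 to 4 too (0.0125, beside 21.7%).

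The Mt1 probe sets were compared directly by the log2 difference between them on each array. That difference changed, brighter minus dimmer, by -0.62 ± 0.47 at 100 µM (adjusted p = 0.968) and -0.77 ± 0.47 at 1000 µM (adjusted p = 0.66) from untreated, among 7839 such pairs of which 0% and 0.982% passed. From 10 to 100 µM it changed by -1.71 ± 0.47 (adjusted p = 1; 0% passed). Unequal change of the Mt1 probe sets did not pass the test.

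**Figure D4:**
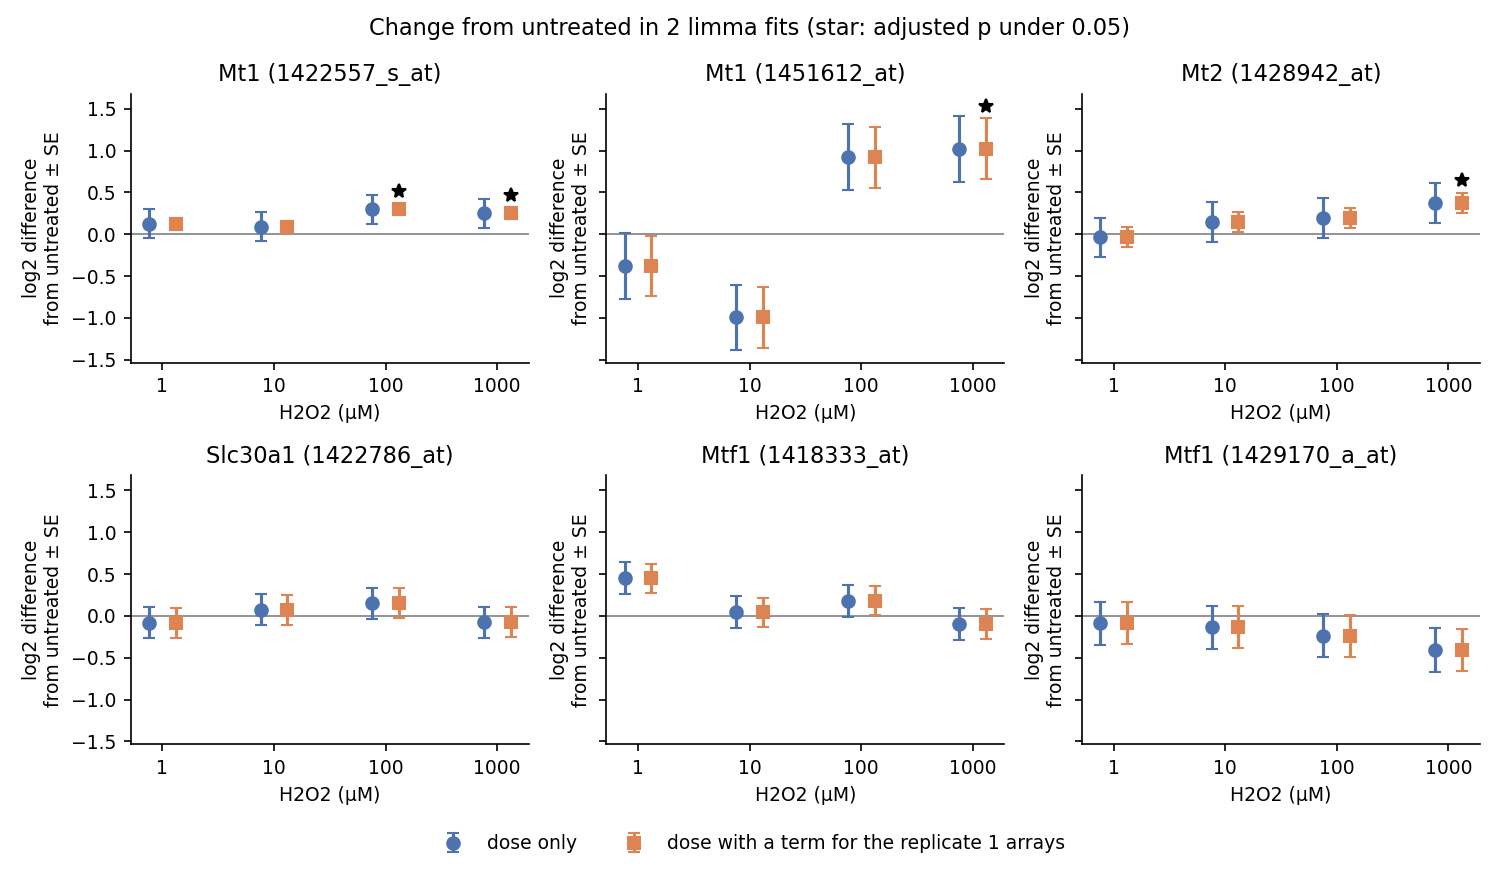
Log2 difference from untreated (± SE, n = 4 arrays per dose) of each member probe set at the 4 doses, in the limma fit with dose alone (circles) and with a term for the replicate 1 arrays (squares), with a star where the adjusted p is under 0.05. The estimates coincide, and stars appear only in the fit with the term, for Mt1 (1422557_s_at) at 100 and 1000 µM and for the dim Mt1 probe set and Mt2 at 1000 µM. The dim Mt1 probe set met the filter only through the top doses, so its star is no support for a change.

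Slc30a1, read by 1422786_at, encodes ZnT1, the zinc exporter of the plasma membrane. Its signals were 155.7, 118.1, 118.3 and 128.2 untreated and 141.3, 152.7, 161.4 and 122.8 at 100 µM. They were 109.3, 123.7, 133 and 126.4 at 1000 µM, and ranged from 98.5 to 135.4 at 1 µM and from 88.3 to 175 at 10 µM. The groups overlapped at every dose. The log2 difference from untreated was -0.08 ± 0.19, 0.07 ± 0.19, 0.15 ± 0.19 and -0.07 ± 0.19 at the 4 doses in rising order (adjusted p = 0.983, 0.997, 0.828 and 0.847). At 1000 µM the 95% interval of the difference ran from -0.46 to 0.312. By mean signal (± SD, n = 4) the order was 1 µM (123 ± 16.85), 1000 µM (123.1 ± 9.995), untreated (130.1 ± 17.72), 10 µM (140.2 ± 36.78) and 100 µM (144.6 ± 16.67), with no neighbours apart by more than their SD.

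Mtf1, the metal-responsive transcription factor, was read by 1418333_at and by the dimmer 1429170_a_at. The signals of 1418333_at were 156, 147.8, 91.3 and 156.2 untreated and 179.6, 201.6, 160.3 and 196.5 at 1 µM. All 4 arrays at 1 µM lay above all 4 untreated arrays, as was so in either direction for 3.78% of tested probe sets. The log2 difference was 0.45 ± 0.19 and did not pass (adjusted p = 0.717, and 0.288 with the batch term). The signals ranged from 125.4 to 158.3 at 10 µM, 116.8 to 214.2 at 100 µM and 112.1 to 135 at 1000 µM, overlapping the untreated ones. Differences from untreated at those doses were 0.04 ± 0.19, 0.18 ± 0.19 and -0.09 ± 0.19 (adjusted p = 0.997, 0.791 and 0.812). By mean signal (± SD, n = 4) the order was 1000 µM (126.6 ± 10.81), untreated (137.8 ± 31.26), 10 µM (139.3 ± 14.07), 100 µM (157.5 ± 44.72) and 1 µM (184.5 ± 18.67), with neighbours within the larger of their SDs.

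For 1429170_a_at, which reached the filter level on 10 of the 20 arrays, signals ranged from 82 to 135.7 untreated, 57.1 to 119.1 at 1 µM, 79 to 114.3 at 10 µM, 66.2 to 107.2 at 100 µM and 61.3 to 115 at 1000 µM. Its largest difference from untreated was -0.41 ± 0.26 at 1000 µM (adjusted p = 0.341). At 1 µM it stood at -0.09 ± 0.26 (adjusted p = 0.991). It turned to 0.16 without 1 µM replicate 1, to 0.05 without untreated replicate 1 and to 0.30 within replicates 2 to 4. Its sign thus depends on the replicate 1 arrays. The change at 1 µM in the difference between the Mtf1 probe sets was 0.54 ± 0.24 (adjusted p = 0.789 over the 7839 pairs, of which 0% passed). By mean signal (± SD, n = 4) this probe set was ordered 1000 µM (78.95 ± 24.48), 100 µM (87.35 ± 17.01), 10 µM (93.32 ± 15.72), 1 µM (99.32 ± 28.48) and untreated (103.3 ± 23.3), with no neighbours apart by more than their SD.

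No other zinc transporter passed the test in its representative probe set. Of 9 further zinc exporters of the SLC30 family 7 were on the array and 6 were tested, with 0 rises and 0 falls at any dose. Their median log2 difference was -0.05 at 100 µM and -0.02 at 1000 µM, against -0.03 and -0.07 over all tested probe sets. Slc30a4, Slc30a9, Slc30a5 and Slc30a6 stood at 0.06, -0.01, -0.09 and -0.14 at 100 µM. Of 14 zinc importers of the SLC39 family 8 were tested, again with 0 calls, and medians of -0.03 and -0.05 at 100 and 1000 µM. Slc39a7, a zinc channel of the secretory pathway, stood at 0.07 at 1000 µM and Slc39a6 at 0.03. Slc39a14, which brings in zinc and iron, stood at -0.34 ± 0.19 at 1000 µM (adjusted p = 0.277) and passed with the batch term (0.0195) and within replicates 2 to 4 (-0.24, 0.0339). Its other probe set did not (0.093 and 0.391). Mt3 and Mt4, the metallothioneins of brain and of stratified epithelium, were both on the array and both under the filter.

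Genes reported in mouse as MTF1 targets, other than the members, gave a single call against untreated among 6 tested, in the dose fit and representative probe sets. It came at 100 µM, where 1.22% of all probe sets passed, with 0 at 1000 µM, where 10.9% did. Gclc, the catalytic subunit of glutamate-cysteine ligase, which makes the precursor of glutathione, rose by 0.87 ± 0.16 at 100 µM (adjusted p = 0.0042), with 0.44 ± 0.19 for its other probe set (0.359). It fell by 1.18 ± 0.16 from 100 to 1000 µM (adjusted p = 9.98e-05). This gene is also a target of NRF2. Selenow, Ndrg1, Csrp1 and Slc40a1 stood at 0.25, 0.28, 0.14 and 0.43 at 100 µM and at 0.34, 0.35, 0.31 and -0.61 at 1000 µM, without a call for the representative probe sets. The list's median was 0.33 at 100 µM and 0.32 at 1000 µM, against -0.03 and -0.07 over all tested probe sets. With the batch term the representative probe sets of Selenow (0.00643), Ndrg1 (0.00292) and Csrp1 (0.00713) passed upward at 1000 µM. That of the iron exporter Slc40a1 (0.0125) passed downward, beside 22.8% of all probe sets. The other probe sets of Selenow (0.287) and Csrp1 (0.409) did not pass there with the term. Other Ndrg1 probe sets passed upward there (0.00296, 0.0107 and 6.48e-06), except for the one at 0.105. At 100 µM the representative Ndrg1 probe set passed with the term (0.0388, beside 3.96%) but not within replicates 2 to 4 (0.0697). Other Ndrg1 probe sets passed both there (0.0169 and 0.00238 with the term, 0.00648 and 0.00602 within replicates 2 to 4). The rest passed neither (0.316 and 0.109 with the term, 0.455 and 0.429 within replicates 2 to 4). At 1000 µM the other Slc40a1 probe set passed downward in the dose fit too (-0.71 ± 0.22, 0.0459). Within replicates 2 to 4 Csrp1 no longer passed (0.0772).

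Of copper-handling genes 8 were tested. Atp7a, the copper-transporting ATPase, fell by 0.38 ± 0.09 at 100 µM (adjusted p = 0.0294) and by 0.34 ± 0.09 at 1000 µM (adjusted p = 0.0157), in 1 of its 2 probe sets. The other stood at -0.399 ± 0.328 and -0.385 ± 0.328 at these doses and did not pass (0.73 and 0.498). Atox1, Cox17, Commd1 and Ccs stood at 0.08, -0.05, -0.01 and 0.07 at 100 µM. Atox1, the chaperone that hands copper to that ATPase, stood at 0.32 at 1000 µM (adjusted p = 0.223). It passed with the batch term (0.0146, beside 22.8% of all probe sets). Its other tested probe set stood at 0.115 and did not pass with the term (0.438). Slc31a2 fell by 0.85 ± 0.22 at 1000 µM in its dimmer probe set (adjusted p = 0.0187, but 0.111 within replicates 2 to 4), and stood at -0.10 in the other (0.837).

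Oxidant-response genes were listed for comparison on the same arrays. Of 5 tested, 4 rose at 100 µM and 1 at 1000 µM in the dose fit, beside 1.22% and 10.9% of all probe sets. Hmox1, haem oxygenase, which is also induced by heavy metals, rose by 1.96 ± 0.13 at 100 µM and 1.45 ± 0.13 at 1000 µM (adjusted p = 6.15e-09 and 3.55e-07). Srxn1, Txnrd1 and Gclm rose by 1.304, 0.804 and 0.862 at 100 µM, and all 4 fell from 100 to 1000 µM, while Nqo1 stood at 0.23 (adjusted p = 0.639). At 1000 µM Srxn1, Txnrd1, Gclm and Nqo1 stood at 0.18, 0.21, 0.19 and -0.20, where Mt1 1422557_s_at stood at 0.25 and Mt2 at 0.38. No difference between these genes and the metallothioneins was tested. Glucocorticoid-responsive genes gave 0 calls of 9 at 100 µM and 2 rises at 1000 µM, beside 1.22% and 10.9% of all probe sets. Those were Dusp1 (0.55 ± 0.15, adjusted p = 0.0187) and Cebpd (0.80 ± 0.17, 0.00483; its dim second probe set -0.02, 0.989). At 100 µM Errfi1 stood at -0.56, Sgk1 at 0.38, Tsc22d3 at 0.22 and Klf9 at 0.43. With the batch term Errfi1 (8.78e-05) passed downward there and Sgk1 (0.0301), Klf9 (0.0284) and Dusp1 (0.018) upward, beside 3.96% of all, of which Errfi1 and Sgk1 also passed within replicates 2 to 4.

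**Figure D5:**
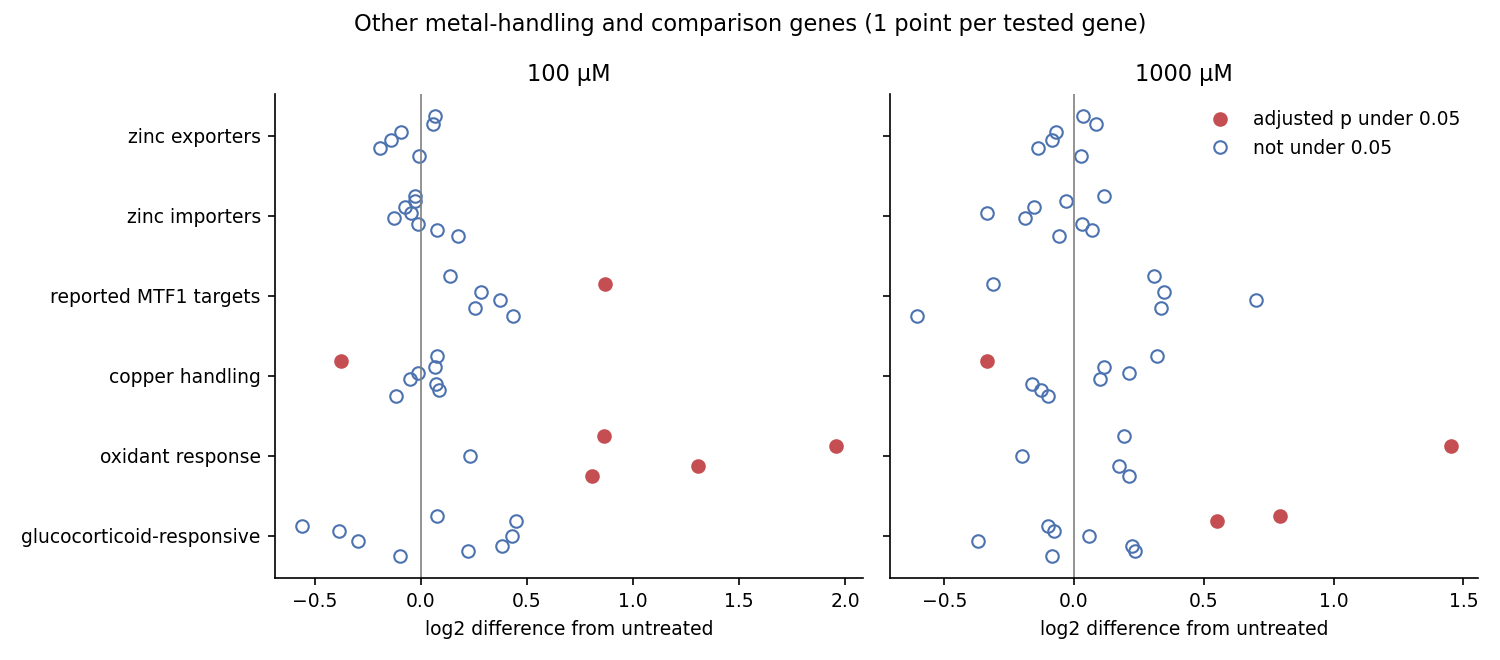
Log2 difference from untreated (horizontal) at 100 µM (left) and 1000 µM (right) of every tested gene in 6 lists, 1 point per gene (its brightest probe set, 4 arrays per dose), filled where the adjusted p is under 0.05. Zinc exporters and importers lie near 0 with no filled point, while 4 oxidant-response genes lie at 0.804 or above at 100 µM.

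The genes whose pattern was most like each member's were taken by Pearson's r over the 20 arrays after each batch's mean was removed, among 8155 genes, as a description. For Mt1 they were Phlda3 (r = 0.843), Cox8a (0.837), Rpn1 (0.823), Osgin1 (0.806) and Psrc1 (0.801). Phlda3 stood at 0.51 from untreated at 100 µM (adjusted p = 0.00924) and Osgin1, an oxidative stress-induced growth inhibitor, at 1.93 (4.61e-05), against 0.30 for Mt1. For Mt2 they were Prkg2 (0.885), Ranbp1 (0.861), Npc2 (0.855), Gars (0.855) and Sars (0.841). For Slc30a1 the highest was Pex3 (0.776) and for Mtf1 Gdf11 (0.767). Without removing the batch means, 0 of the 5 genes named for Mt1 were among its 5 most like, and 1 of 5 for Mt2 (Npc2, plain r = 0.934).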

How the data were processed

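Total RNA of 20 C2C12 myotube samples was hybridised to Affymetrix Mouse Genome 430A arrays, 1 array each. The deposited intensity values are probe-set signals on a linear scale, made with Microarray Suite 5.0 per the labels' design text and MAS5 per the submitters' processing notes. The 2% trimmed mean of each deposited array was 500.1 to 500.2. Arrays give no read depth, and 4 per dose limit the precision.

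Here the small remaining differences in trimmed mean were removed, values under 1 were set to 1, and logs to base 2 followed. The 64 Affymetrix controls among 22690 probe sets were dropped. Testing was kept to the 14379 probe sets with a signal at or above the array's 40th percentile on 4 or more of the 20 arrays, and 8247 were not tested. The 6 member probe sets all qualified. limma 3.58.1 in R 4.3.3 fitted the 5 doses together (lmFit, then eBayes with trend, on 15 residual degrees of freedom and 5.329 prior ones). P-values were adjusted by Benjamini-Hochberg in each comparison across the tested probe sets, with calls below 0.05. Adjusted p-values are from limma except where a permutation test (SciPy 1.17.1) is named. The fit was tested on simulated data without array sets, with planted changes larger than those of the bright Mt1 probe set and Mt2. That test does not show how the fit performs with the replicate 1 arrays or on small changes. Groups follow the sample titles.

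Symbols were read from the platform's annotation, some of which may be outdated (20393 probe sets with 1 symbol, 691 with several, 1606 with none), and the brightest tested probe set represents a gene. The genes named are all members, every called gene of the lists with up to 4 bright uncalled ones, and those of most like pattern. Slc31a2 and second probe sets were named after their values were seen. The members and lists were chosen with earlier results of these data known, and list calls with the batch term or within replicates 2 to 4 were added after seeing the data. The main fit did not pair samples with the same number. Deviations from group means correlated over 0.1 in 6 of 6 pairs for number 1 but in 6 of 10 for each of the numbers 2, 3 and 4. Alternatives were median centring, quantile normalization, no filter and a stricter one, a pseudocount of 32, a replicate block, a batch term, replicates 2 to 4 alone, array weights, the design text's fold rule (average change over 1.75, same direction in all crossed pairs) and leaving out each array.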

Additional observations from a re-analysis of the deposited data

Results flagged for a closer look

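In 6 of 30 groups of 4 arrays (6 probe sets at 5 doses), 1 array lay far from the other 3 by Dixon's criterion, which chance meets in about 1 group in 20, and 5 of these 6 were replicate 1 arrays. Mt1 1422557_s_at was low on 100 µM replicate 1 (signal 2569.7) and on 1000 µM replicate 1 (2583.4). Mt2 was low on untreated replicate 1 (1511) and on 100 µM replicate 1 (1853.7). Mtf1 1418333_at was low on untreated replicate 3 (91.3), the 1 array outside that set, and Mtf1 1429170_a_at on 1 µM replicate 1 (57.1). The part of handling, labelling or culture in the replicate 1 arrays was not tested.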

How the results depend on the processing

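Counts of called member probe sets (of 6) depended on how the replicate 1 arrays were treated. Against untreated at 100 µM the count of 0 became 1 with the replicate block (the unnumbered array left out), with the batch term, within replicates 2 to 4 and by the design text's fold rule. At 1000 µM the count of 0 became 3 with the batch term, 2 with the replicate block, and 1 each under median centring (dim Mt1 probe set, 1.22, adjusted p = 0.0388), a pseudocount of 32 (same, 0.70, 0.0373), replicates 2 to 4 and the fold rule. At 10 µM it became 1 by the fold rule, which called the dim Mt1 probe set lower. That probe set met the filter only through the top doses. Its calls in the filtered fits, that of the batch term at 1000 µM among them, are therefore no support for a change. From 10 to 100 µM the count of 1 became 0 with the stricter filter and within replicates 2 to 4, where that probe set was not tested, and leaving out 1 array gave 0 to 1. For the trend, 1 became 0 with the stricter filter, 2 with array weights and 3 with the block or the batch term. For the F-test, 1 became 0 with the stricter filter and 2 with the block or the batch term. With the replicate block, the Mt1 differences of 0.30 and 0.25 at 100 and 1000 µM had adjusted p = 0.0199 and 0.0151, and Mt2 at 1000 µM 0.0308. It ended no call.

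Of 636 recomputed single differences 620 kept their side of the threshold, 14 gained and 2 lost a call, and 0 called ones turned sign. Of the uncalled, 43 turned sign. Without untreated replicate 1, Mt1 1422557_s_at moved to 0.17 at 100 µM and 0.12 at 1000 µM, and Mt2 to 0.15 at 1000 µM, with the balance of the batch lost. The Mt1 to Mt2 comparison was called under no alternative, of which replicates 2 to 4 alone and permutation within the array sets (added after seeing the data) could not fall below 0.05. The number of all probe sets called at 1000 µM was 1574, against 771 after quantile normalization, 2434 with median centring, 3282 with the batch term, 2854 with the block, 2539 within replicates 2 to 4, 4267 with array weights and 307 by the fold rule. At 100 µM it was 175, against 570, 402, 361 and 883 with batch term, block, replicates 2 to 4 and array weights, and 96 by the fold rule. Of the counts for lists, added after seeing the data, that of MTF1 targets went from 0 to 3 rises and from 0 to 1 fall at 1000 µM with the batch term, and that of glucocorticoid-responsive genes likewise at 100 µM. Low signal limits what the dim Mt1 and Mtf1 probe sets can show.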
